A study of Mus musculus with 2 samples.

Results

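Genes known for silencing fetal or embryonic globin were followed in the livers of mouse embryos at embryonic day 14.5: Bcl11a, Zbtb7a, Sox6, Myb, Hbs1l, Nr2c1, Nr2c2, Mbd2, Chd4 and Gatad2a. These 10 genes, of 43346 mouse genes measured, were chosen by name and not by their levels, though with earlier results of these data known. Each was found in both libraries by its Ensembl identifier. Total RNA was sequenced from 2 livers of the B6NCrl strain in 1 group, with no mutation or treatment named in the labels. Replicate 1 was collected on 17 July 2014 and replicate 2 on 15 July 2014, and the labels call each the liver of a single pup while giving its sex as a pool of both, which cannot both hold. Both samples also carry the same donor identifier although their collection dates differ, and the labels do not settle how the livers are related. Each library was made from 10 ng of RNA longer than 200 nucleotides with spike-in RNAs added. Libraries held 39998450 and 28848861 estimated reads (replicates 1 and 2), of which 37059776 and 26908926 lay on mouse genes. A single group of 2 livers allows no test, so each gene is given by its value in each liver, by mean ± SD (n = 2) and by whether ranges overlap.

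In human development the gamma-globin genes of the fetus are silenced around birth, and the mouse, which has no separate fetal gene, silences its embryonic beta-like genes Hbb-y and Hbb-bh1 when blood formation moves from the yolk sac to the fetal liver. Bcl11a and Zbtb7a (also called LRF) encode zinc finger proteins that bind globin promoters and recruit corepressors, and Sox6 encodes an HMG-box partner of Bcl11a. Myb encodes a transcription factor of blood progenitors. Hbs1l, a gene of ribosome rescue, is its neighbour, and the human interval between them is a known locus for fetal haemoglobin level. Nr2c1 and Nr2c2 encode the orphan nuclear receptors TR2 and TR4, which bind direct repeats in globin promoters as a heterodimer. Mbd2, Chd4 and Gatad2a encode the methyl-CpG-binding, ATPase and bridging subunits of NuRD, a nucleosome remodelling and deacetylase complex used by several of these repressors.

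The transcripts that distinguish the forms of 4 members are shown first, because their shares are a main difference among the members below. Each line gives 60 coding bases on the gene's own strand, from GENCODE M21 transcripts on GRCm38. The first 30 bases, in lower case, are common to both forms of a pair, and the next 30, in capitals, follow them in that transcript. For Bcl11a the common bases end at position 24163288 of chromosome 11. Bcl11a-204 then splices to 24172699, while Bcl11a-202 reads on into the large coding exon that carries most of the zinc fingers.
Bcl11a-204: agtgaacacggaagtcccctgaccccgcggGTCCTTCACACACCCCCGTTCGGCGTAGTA
Bcl11a-202: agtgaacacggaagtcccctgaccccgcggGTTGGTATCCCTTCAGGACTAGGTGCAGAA
The other long form, Bcl11a-201, leaves the same large exon further on, at 24164888, and joins the same last exon in another reading frame, with 89 coding bases there in place of the 99 of Bcl11a-204, whereas Bcl11a-202 again reads on.
Bcl11a-201: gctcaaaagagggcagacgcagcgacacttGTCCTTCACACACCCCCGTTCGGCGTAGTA
Bcl11a-202: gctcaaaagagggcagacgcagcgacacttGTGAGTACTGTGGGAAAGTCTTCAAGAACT
For Myb, on the minus strand of chromosome 10, the common bases end at 21146186. Myb-203 continues with a 357-base exon (21144969 to 21145325) that Myb-201 skips.
Myb-203: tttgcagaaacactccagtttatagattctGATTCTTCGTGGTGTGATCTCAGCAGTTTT
Myb-201: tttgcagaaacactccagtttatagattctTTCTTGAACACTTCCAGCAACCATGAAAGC
For Sox6, on the minus strand of chromosome 7, the common bases end at 115580565. Sox6-203 continues with a 123-base exon (115579016 to 115579138) that Sox6-204 skips.
Sox6-203: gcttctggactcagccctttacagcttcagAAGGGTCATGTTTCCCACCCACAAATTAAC
Sox6-204: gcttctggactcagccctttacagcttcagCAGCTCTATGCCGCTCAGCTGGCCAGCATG
For Hbs1l, on the plus strand of chromosome 10, the common bases end at 21307779. Hbs1l-201 continues through the exons that encode the GTPase, and Hbs1l-203 ends in a 1418-base coding exon of its own (21309099 to 21310516).
Hbs1l-201: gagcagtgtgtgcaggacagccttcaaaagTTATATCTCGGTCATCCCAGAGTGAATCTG
Hbs1l-203: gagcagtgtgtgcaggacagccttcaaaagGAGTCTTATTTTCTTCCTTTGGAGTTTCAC

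The genes that these repressors act on are shown next by the promoters of the embryonic Hbb-y and the adult Hbb-bs, whose RNA levels lay far apart in both livers. Each line gives the 250 bases before the RefSeq start on the gene's strand (GRCm38.p6). Hbb-y is chr7:103853208-103853457 and Hbb-bs is chr7:103827929-103828178, both on the minus strand. Capitals mark matches on either strand to TGACCA, the word Bcl11a is known to bind, and to AGGTCA and GGGTCA, which are nuclear receptor half-sites of the kind TR2 and TR4 bind.
Hbb-y: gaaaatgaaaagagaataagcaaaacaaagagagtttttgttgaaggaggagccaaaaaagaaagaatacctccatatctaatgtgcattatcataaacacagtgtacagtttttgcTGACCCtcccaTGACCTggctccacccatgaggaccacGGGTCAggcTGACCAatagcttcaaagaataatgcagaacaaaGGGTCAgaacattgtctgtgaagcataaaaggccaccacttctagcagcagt
Hbb-bs: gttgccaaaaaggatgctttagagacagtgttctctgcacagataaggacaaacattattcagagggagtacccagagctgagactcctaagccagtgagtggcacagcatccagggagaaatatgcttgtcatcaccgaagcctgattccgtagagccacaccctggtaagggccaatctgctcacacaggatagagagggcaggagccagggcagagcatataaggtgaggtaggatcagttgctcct
The Hbb-y window held TGACCA 1 time, 86 to 81 bases before the start, AGGTCA 1 time and GGGTCA 3 times, with no match overlapping another. The Hbb-bs window held none of these words. Of 32851 promoter windows of the same length, 11.4% held TGACCA, 14.0% AGGTCA and 11.6% GGGTCA. The Sox word ACAAT, not in capitals, occurred 1 time in the Hbb-y window and in 27.7% of all windows. Entries existed for 7 of the 8 globin genes. Among the others, Hba-x held TGACCA and ACAAT, Hbb-bt held GGGTCA, and Hbb-bh2, Hba-a1 and Hba-a2 held none. A match is a description of the letters and not a bound site.

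All 10 genes were detected at 1 TPM or more in both livers. TPM is a gene's share of all transcripts, a level per transcript length on which genes can be compared. The median member stood at 17.2 and 20.4 TPM (replicates 1 and 2), against 9.2 and 10.1 TPM for the 11375 genes detected in both. In bulk tissue, a gene used in fewer cells and a gene with less RNA in each cell cannot be told apart. Between the highest and lowest member the means differed 23.2-fold.

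**Figure D1:**
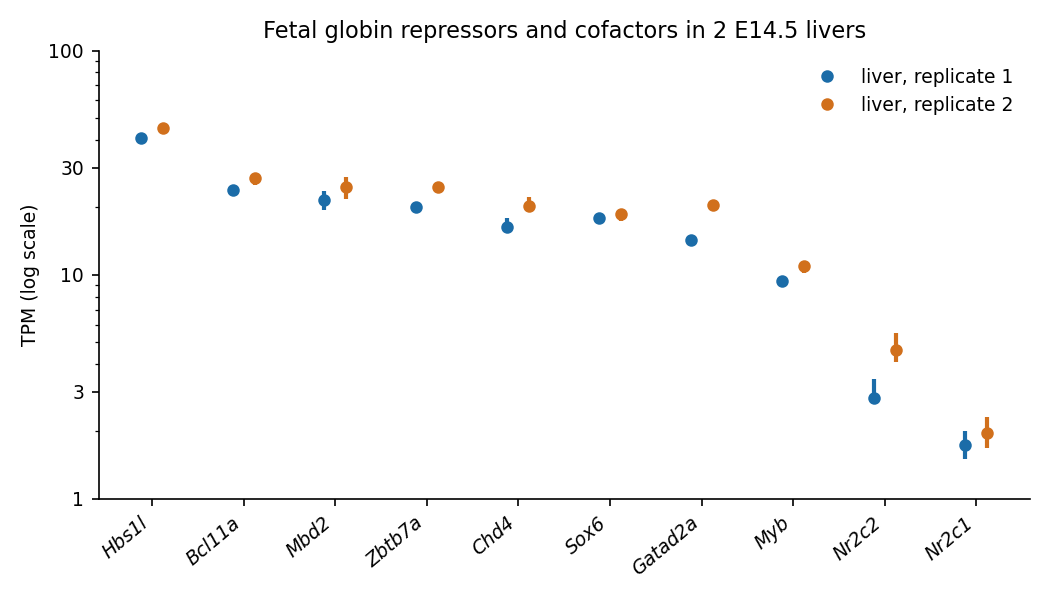
Level of each member in each liver, in TPM on a log axis, ordered by mean. Points are the 2 libraries and vertical lines the deposited TPM interval, which covers read counting and assignment only; Hbs1l stands above the rest, 6 genes lie between means of 17.4 and 25.5 TPM, and both TR2/TR4 genes lie lowest.

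The DNA-binding repressors with zinc fingers lay near each other. Bcl11a (ENSMUSG00000000861, chromosome 11, 24078056 to 24174123, plus strand) was at 23.9 and 27.1 TPM (replicates 1 and 2, as in every pair of values below), a mean of 25.5 ± 2.19 TPM (SD, n = 2), from 2407 and 1977 estimated reads. Zbtb7a (ENSMUSG00000035011, chromosome 10, 81135220 to 81152995, plus strand) was at 20.1 and 24.7 TPM, a mean of 22.4 ± 3.25 TPM, from 3138 and 2756 reads. Bcl11a was the higher in each liver, although the ranges of both genes over the 2 livers overlapped. They stood at the 73.6th and 71.0th percentile of detected genes.

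Sox6, the HMG-box partner, had a slightly lower mean and the smallest TPM ratio of the members between the livers, though not by CPM, where Mbd2, Hbs1l and Nr2c1 differed less. Sox6 (ENSMUSG00000051910, chromosome 7, 115470872 to 116038796, minus strand) was at 17.9 and 18.7 TPM, a mean of 18.3 ± 0.57 TPM, from 3812 and 2736 reads. Its range overlapped with those of Chd4 and Gatad2a, next to it in the order.

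Myb and its neighbour Hbs1l lay at different levels. Hbs1l (ENSMUSG00000019977, chromosome 10, 21295979 to 21368898, plus strand) was the highest member, at 40.9 and 45.2 TPM, a mean of 43.1 ± 3.02 TPM from 4580 and 3513 reads, at the 83.1st percentile. Myb (ENSMUSG00000019982, chromosome 10, 21124935 to 21160984, minus strand) was at 9.41 and 10.97 TPM, a mean of 10.2 ± 1.10 TPM from 1346 and 1086 reads, at the 51.5th percentile. Hbs1l was thus 4.35-fold above Myb in replicate 1 and 4.12-fold in replicate 2, and their ranges did not overlap. Both genes point away from each other across 134994 bases, in which the annotation places 4 genes. Of these, 1 was matched in the tables, the pseudogene Gm2467, at 0.13 and 0.08 TPM.

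Both orphan nuclear receptors were the lowest members. Nr2c2 (TR4, ENSMUSG00000005893, chromosome 6, 92091390 to 92174294, plus strand) was at 2.83 and 4.63 TPM, a mean of 3.73 ± 1.27 TPM from 758 and 787 reads. Nr2c1 (TR2, ENSMUSG00000005897, chromosome 10, 94148023 to 94197211, plus strand) was at 1.74 and 1.97 TPM, a mean of 1.86 ± 0.16 TPM. It rested on 249 and 193 reads, the fewest of any member, with exact 95% Poisson intervals of 219 to 282 and 167 to 222 reads that cover counting error only. Their ranges did not overlap, and Nr2c2 held 61.9% and 70.2% of the pair's summed TPM. The gene Mrps25 overlaps Nr2c2 on the opposite strand over 4770 bases and was at 30.2 and 32.0 TPM. The sources do not say if counting used strand, and the part of Mrps25 reads in the Nr2c2 values was not tested. The counting model put an SD of 12.6 and 13.5 reads on the Nr2c2 count.

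The NuRD subunits among the members lay within the middle group. Mbd2 (ENSMUSG00000024513, chromosome 18, 70568189 to 70626131, plus strand) was at 21.6 and 24.7 TPM, a mean of 23.2 ± 2.20 TPM from 1288 and 973 reads. Chd4 (ENSMUSG00000063870, chromosome 6, 125095981 to 125130591, plus strand) was at 16.4 and 20.3 TPM, a mean of 18.4 ± 2.76 TPM from 3820 and 3244 reads. Gatad2a (ENSMUSG00000036180, chromosome 8, 69907076 to 69996384, minus strand) was at 14.4 and 20.5 TPM, a mean of 17.4 ± 4.32 TPM from 3057 and 3016 reads. The effective transcript length behind these levels was 5565 bases for Chd4 and 5092 bases for Gatad2a against 1425 bases for Mbd2 in replicate 1, so their reads differ more than their levels.

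Along the order of means, ranges overlapped for 5 of the 9 neighbouring pairs: Bcl11a with Mbd2, Mbd2 with Zbtb7a, Zbtb7a with Chd4, Chd4 with Sox6, and Sox6 with Gatad2a. For 6 of the 9 pairs the order was the same in both livers, Bcl11a above Mbd2 and Zbtb7a above Chd4 among them. The steps that ranges did separate were those from Hbs1l to Bcl11a, from Gatad2a to Myb, from Myb to Nr2c2 and from Nr2c2 to Nr2c1. By estimated reads, which are not per length, 7 of the 10 ranks differ, with Bcl11a sixth and Mbd2 eighth.

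Most members were the main expressed copy of their family. In 7 of 10 cases the member held the most TPM among its listed paralogs in both livers: Bcl11a, Zbtb7a, Sox6, Hbs1l, Nr2c2, Chd4 and Gatad2a. Nr2c1 and Nr2c2 are each other's only listed paralog, so a lead by 1 of them was fixed unless their order changed between livers. Bcl11b, the T-cell paralog of Bcl11a, was at 0.01 and 0.06 TPM, so Bcl11a held 99.96% and 99.78% of the pair. Zbtb7a held 95.6% and 95.9% of its family of 3, with Zbtb7b at 0.78 and 1.02 TPM and Zbtb7c at 0.14 and 0.05 TPM. Sox6 held 88.4% and 87.6% of the SoxD group, where Sox5 was at 1.06 and 1.73 TPM and Sox13 at 1.29 and 0.92 TPM. These 3 DNA-binding repressors therefore each took most of their family's transcripts in both livers.

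The ATPase and bridging subunits had the same one-sided pattern. Chd4 held 88.8% and 92.8% of the group with Chd3 (1.91 and 1.57 TPM) and Chd5 (0.15 and 0.00 TPM). Gatad2a held 88.3% and 89.9% of the pair with Gatad2b (1.91 and 2.30 TPM). In contrast, the release factor relative Gspt1 stood close below Hbs1l, at 37.1 and 41.0 TPM, and Gspt2 was at 0.70 and 0.28 TPM. The ranges of Gspt1 and Hbs1l over the livers overlapped, so the lead of Hbs1l holds within each liver but not across them.

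Besides Nr2c1, the lower gene of its pair, 2 members were outranked by a paralog. Mybl2, a cell cycle gene of the Myb family, was at 25.2 and 27.8 TPM, so Myb held 27.0% and 28.1% of the family, and Mybl1 was at 0.19 and 0.31 TPM. Mbd3, which takes the place of Mbd2 in a separate form of NuRD, was at 36.2 and 35.9 TPM, so Mbd2 held 37.4% and 40.8% of that pair. Ranges did not overlap in either case.

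**Figure D2:**
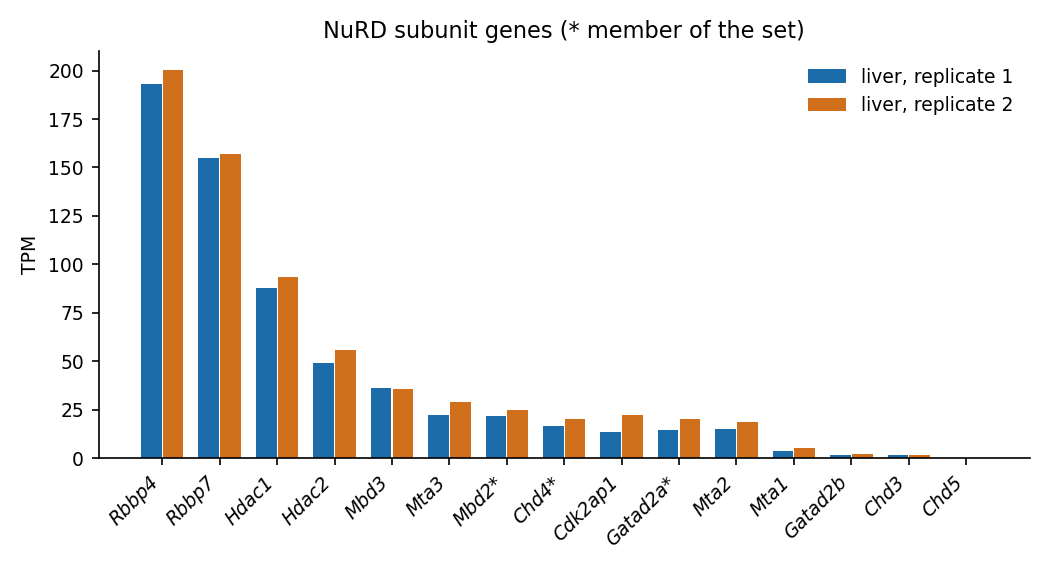
TPM of 15 NuRD subunit genes in each liver (bars, 1 per library; axis from 0), ordered by mean, with members of the repressor set starred. Rbbp4 and Rbbp7 are the highest, and Mbd2, Chd4 and Gatad2a lie in the middle of the list.

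Within NuRD as a whole, the members were neither the most nor the least abundant parts. At least 1 TPM was found for 14 of 15 subunit genes in each liver, and the median subunit was at 16.4 and 22.2 TPM. The histone chaperone subunit Rbbp4 was the highest, at 192.8 and 200.2 TPM, followed by Rbbp7 at 154.7 and 156.8 TPM, and the deacetylase genes Hdac1 (87.6 and 93.7 TPM) and Hdac2 (49.3 and 56.1 TPM) came next. These 4 genes also serve other complexes. Of the Mta scaffold genes, Mta3 was at 22.2 and 28.8 TPM, Mta2 at 15.1 and 18.7 TPM and Mta1 at 3.86 and 5.21 TPM. Cdk2ap1, a small subunit, was at 13.3 and 22.2 TPM.

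Other cofactors and regulators linked to globin silencing covered a wider range. All 16 genes of a list of further corepressors reached 1 TPM in both livers, with a median of 13.6 and 15.1 TPM. Trim28, a scaffold for heterochromatin proteins, was the highest at 78.3 and 94.6 TPM. Dnmt1, the maintenance DNA methyltransferase, was at 23.1 and 28.2 TPM, and the demethylase gene Kdm1a at 9.89 and 11.48 TPM; proteins of both genes occur with TR2 and TR4 in a repressor complex.

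All 16 further regulators also reached 1 TPM in both livers, with a median of 10.6 and 12.8 TPM. Klf1, the erythroid activator upstream of Bcl11a and Zbtb7a, was the highest at 425.2 and 463.2 TPM, and Hic2, a repressor of Bcl11a, the lowest at 1.64 and 1.67 TPM. Zfp410, a zinc finger activator of Chd4, was at 19.5 and 22.2 TPM. Gata1 was at 85.8 and 103.3 TPM and the haem-regulated kinase gene Eif2ak1 at 88.0 and 91.6 TPM. The nuclear factor I genes Nfia (1.99 and 2.02 TPM) and Nfix (1.98 and 2.49 TPM) stood near the level of Nr2c1.

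The globin genes themselves covered the widest range, from 0 reads to the adult genes far above all members. Of the embryonic genes, Hbb-y was at 420.7 and 518.5 TPM, Hbb-bh1 at 126.1 and 173.2 TPM and Hba-x at 62.8 and 71.5 TPM. The further listed globin gene Hbb-bh2 had 0 reads in both livers. Adult Hbb-bs, whose promoter is shown above, was at 80700 and 77948 TPM. Each of the 3 embryonic globins stood above every one of the 10 members. These 3 were higher in replicate 2 by TPM, FPKM and CPM. The 4 adult genes Hbb-bs, Hbb-bt, Hba-a1 and Hba-a2 were lower in replicate 2 by each of these measures. Their TPM ratios, replicate 2 over replicate 1, were only 0.96 to 0.97-fold, and 0 of them lay past 1.2-fold. Those of Hbb-y, Hbb-bh1 and Hba-x were 1.23, 1.37 and 1.14-fold. Of all genes with a mean of at least 10 TPM, 76.3% were higher in replicate 2 by TPM and 44.3% by CPM.

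**Figure D3:**
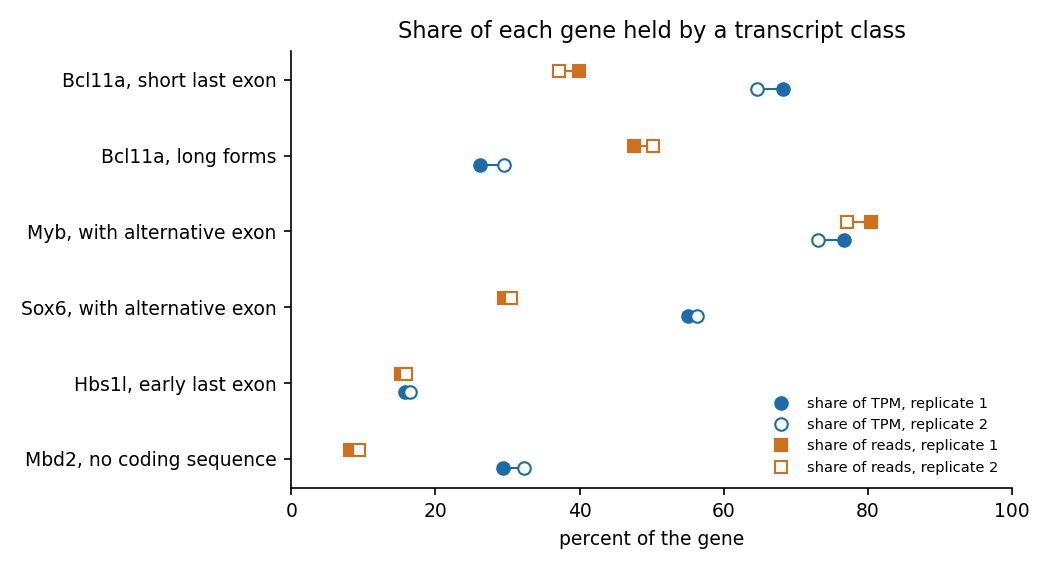
Share of a gene held by 1 class of its transcripts, in percent, by TPM (circles) and by estimated reads (squares), in replicate 1 (filled) and replicate 2 (open). The livers lie close together in every class plotted, while TPM and reads lie far apart for Bcl11a, Sox6 and Mbd2 and close together for Myb and Hbs1l. The classes were chosen after the shares had been seen. Forms that differed more between the livers, such as Gatad2a-201 with 33.4% and 18.1% of TPM, are not plotted.

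The tables listed 46 transcripts of the 10 genes, of which 24 held at least 10% of their gene's TPM in either liver. The same transcript led in both livers for 8 of 10 genes, all 8 with 50% or more of the gene in both. The deposited share is a percent of TPM, which weighs a short transcript more than its read count does, so the share of reads is given beside it where the order of transcripts depends on it.

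Bcl11a transcripts divided into short and long coding forms. The short form Bcl11a-204, 191 codons and 1505 bases long, held 68.3% of the gene's TPM in replicate 1 and 61.5% in replicate 2. Its annotated coding sequence starts at 24085422, without the 55-base first coding exon of Bcl11a-201, Bcl11a-202 and Bcl11a-203. The other short form, Bcl11a-203 of 243 codons, held 0% and 3.08%. Long forms Bcl11a-201 (773 codons) and Bcl11a-202 (835 codons) together held 26.2% and 29.5% of TPM, at 6.29 and 7.98 TPM. By estimated reads the order was the other way round: the long forms held 47.5% and 50.2% of reads and the short forms 40.0% and 37.1%. Transcripts without a coding sequence held 12.5% and 12.7% of reads. Most copies of Bcl11a RNA were thus assigned to the short form, while the larger number of reads was assigned to the long forms, whose transcripts are longer. The tables do not show which of these reads crossed the junctions printed above.

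Myb and Hbs1l had 1 dominant form by either measure. Myb-203, 755 codons with the 357-base exon, held 76.7% and 73.1% of Myb TPM and 80.5% and 77.2% of its reads. Myb-201, 636 codons without it, held 22.0% and 26.9% of TPM. Hbs1l-201, 679 codons, held 84.2% and 83.5% of TPM, and Hbs1l-203, 612 codons with its own last exon, 15.8% and 16.5%. At 6.46 and 7.44 TPM, this second Hbs1l form stood above both TR2/TR4 genes. Lengths of Hbs1l-203, Myb-201 and Myb-203 differ between the annotation of the tables (M4) and M21, from which exons and codons were taken.

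For Sox6 the leading form depended on the measure. Sox6-203, 827 codons with the 123-base exon, held 55.0% and 56.3% of TPM but 29.5% and 30.5% of reads. Sox6-204, 787 codons without it, held 43.5% and 40.4% of TPM and 68.2% and 64.1% of reads. Sox6-203 is annotated with 2825 bases and Sox6-204 with 8079 bases, so the same reads count for more copies in the shorter form. Both livers gave the same order under each measure.

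The nuclear receptor and NuRD members had smaller or less certain form differences. All 3 Nr2c1 transcripts share a coding sequence of 590 codons, and Nr2c1-203 held 85.2% and 80.7% of TPM and Nr2c1-201 14.8% and 19.3%. Nr2c2-201, 596 codons, held 82.3% and 70.5%, and the fragment Nr2c2-203 11.4% and 3.08% from 13 and 4 reads. Nr2c2-205, annotated as a target of nonsense-mediated decay, was at 0% and 13.7%, the latter from 49.9 reads or 6.35% of the gene's reads. Both main Zbtb7a transcripts also encode 1 protein of 569 codons: Zbtb7a-203 held 49.9% and 39.3% of TPM and Zbtb7a-201 held 48.8% and 51.9%, while by reads Zbtb7a-201 led in both livers with 76.4% and 79.0%.

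Mbd2-201, 414 codons, held 70.6% and 65.3% of Mbd2 TPM, and the retained-intron transcript Mbd2-204 held 29.4% and 32.3%, though 8.15% and 9.41% of reads. Chd4 divided between Chd4-203 of 1902 codons (41.4% and 33.2%) and Chd4-202 of 1922 codons (38.2% and 47.2%), so the leading transcript differed between livers, but by posterior mean TPM Chd4-202 led in both with 35.7% and 42.7%. Chd4-204, annotated with 444 codons in 1332 bases, held 10.6% and 12.1% of TPM but 2.36% and 2.71% of reads. Gatad2a-203, 614 codons, held 56.2% and 57.1%. The other Gatad2a forms exchanged shares: Gatad2a-201 held 33.4% in replicate 1 and 18.1% in replicate 2, and Gatad2a-202 held 10.5% and 24.8%. In M21 their coding exons differ by 3 bases, and the tables list all 3 Gatad2a transcripts with lengths other than those of M21.

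Between the livers every member was higher in replicate 2 by TPM, a direction shared by 76.3% of the 5576 genes with a mean of at least 10 TPM. Ratios below are log2 of (TPM + 1), replicate 2 minus replicate 1, a scale that understates differences of low genes. The members' median was 0.19, against 0.09 for all 5576 genes. Past 1.2-fold lay 4 of the 10, all higher in replicate 2: Nr2c2 at 0.56, Gatad2a at 0.48, Chd4 at 0.29 and Zbtb7a at 0.28. Of all genes, 12.2% lay past 1.2-fold in either direction, 10.2% higher and 2.01% lower. Past 2-fold lay 0 members, where 0.251% of all genes did. Only the 8 members with a mean of at least 10 TPM are of the same kind as those genes, and 3 of these 8 lay past 1.2-fold.

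**Figure D4:**
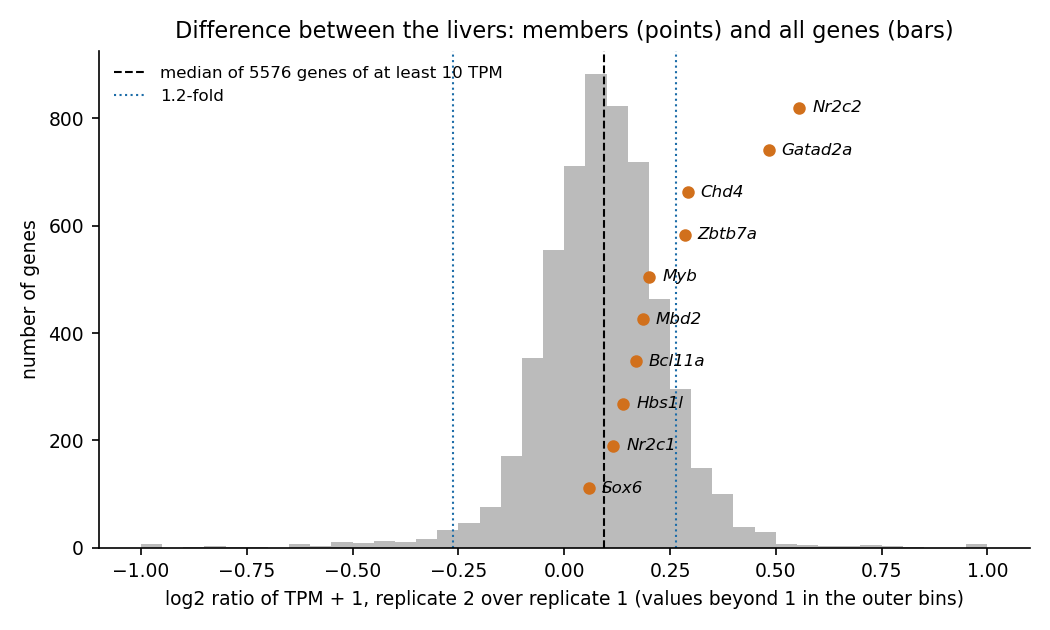
Log2 ratio of TPM + 1, replicate 2 over replicate 1, for the members (points, labelled, height without meaning) and for 5576 genes of at least 10 TPM (bars, number of genes). The dashed line is the median of these genes, 0.09, and Gatad2a and Nr2c2 lie furthest to its right.

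The deposited TPM intervals, whose level is not stated, did not overlap between the livers for 7 of 10 members, all 7 higher in replicate 2, against 34.1% of all genes of at least 10 TPM in either direction and 30.7% higher. Of the 8 members of at least 10 TPM, they did not overlap for 6. They overlapped for Mbd2, Sox6 and Nr2c1. For Gatad2a the intervals were 13.7 to 14.7 and 19.4 to 20.8 TPM, and for Nr2c2 they were 2.65 to 3.42 and 4.07 to 5.50 TPM. Such intervals hold counting and assignment error and no spread between animals, so they do not show how other livers would vary.

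The size of these differences depended in part on the scaling. By CPM, reads scaled to library size with TMM factors and not to length, the median of all genes moved from 0.09 to -0.02 and that of the members from 0.19 to 0.11, and 9 members were higher and 1, Sox6, lower in replicate 2, where 44.3% of all genes were higher. Relative to the median of all genes, 9 members lay above it and 1, Sox6, below it under TPM and CPM alike. FPKM gave the same counts, but it is TPM times a constant in each library. Set against the median it can differ from TPM only through the pseudocount. Gatad2a lay 0.39 above that median by TPM and 0.40 by CPM, and Nr2c2 0.46 by both. These 2 genes were past 1.2-fold in 7 of 7 settings, Chd4 in 4 and Zbtb7a in 3. Of all genes, 2.21% were past 1.2-fold higher by CPM. For Nr2c2, part of the TPM difference came with a shorter effective length in replicate 2, 0.91-fold that of replicate 1, and by CPM its ratio was 1.38-fold in place of 1.64-fold.

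The lists around the members were mostly higher in replicate 2 by TPM as well, with counts that shrank by CPM. Beside them, 76.3% of all genes of at least 10 TPM were higher and 10.2% past 1.2-fold higher by TPM, and 44.3% and 2.21% by CPM; the lists also hold genes below 10 TPM. Of the 15 NuRD genes, members included, 12 were higher and 3 lower by TPM, 6 of them past 1.2-fold higher, with a median of 0.18. Beyond Gatad2a and Chd4, these were Cdk2ap1 (0.70), Mta3 (0.36), Mta1 (0.35) and Mta2 (0.30), while Mbd3 (-0.01), Chd3 (-0.18) and Chd5 (-0.20) were lower. By CPM, 9 NuRD genes were higher and 6 lower, 3 past 1.2-fold higher and 1 past it lower, with Rbbp4, Rbbp7 and Hdac1 now among the lower. All 16 further corepressors were higher by TPM, 5 past 1.2-fold with a median of 0.14, and 11 were higher by CPM, 1 past 1.2-fold. The zinc finger gene Wiz, a partner of histone methyltransferases, had the largest ratio of that list, 0.51 by TPM. Of the 16 further regulators, 15 were higher by TPM, 4 past 1.2-fold with a median of 0.18, and 10 by CPM, 1 past 1.2-fold.

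Some cell type markers also differed between the livers. Of all genes of at least 10 TPM, 10.2% lay past 1.2-fold higher in replicate 2 and 2.01% lower by TPM, and 2.21% higher by CPM. The 8 neutrophil markers were lower in replicate 2 in 8 of 8 cases by TPM and by CPM, 7 past 1.2-fold by TPM, with sums of 2770 and 1985 TPM. The 6 megakaryocyte markers were higher in 6 of 6 by both, 5 past 1.2-fold by TPM and 2 by CPM, with sums of 545 and 684 TPM. Erythroid markers summed to 2485 and 2610 TPM with 0 of 8 past 1.2-fold, hepatoblast markers to 12998 and 13883 TPM, endothelial markers to 85.9 and 87.0 TPM and progenitor markers to 32.1 and 34.5 TPM. The directions of these lists depended on the scaling. Hepatoblast markers were higher in replicate 2 in 7 of 8 cases by TPM but 3 of 8 by CPM. Erythroid markers went from 7 to 5 of 8, progenitor markers from 4 to 3 of 8 and endothelial markers from 3 to 4 of 6. The liver label was met by hepatoblast genes in both, with Afp at 6417 and 6856 TPM. Markers of B lineage cells, in which Bcl11a is also used, summed to 10.8 and 12.1 TPM over 8 genes. Of these, 4 reached 1 TPM in both livers. Cd79b was the highest by mean, at 3.97 and 3.71 TPM, and the defining factor Pax5 the lowest, at 0.00 and 0.06 TPM. The part of cell mixture in the members' differences was not tested.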

How the data were processed

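RNA-seq tables of 2 libraries were used. Expected counts (estimated reads per gene), TPM, FPKM (scaled to length and library total), posterior mean TPM, a posterior SD and TPM interval bounds (level not stated), and the percent of a gene's TPM in each transcript were deposited, per the file headers. The build is mm10 with GENCODE M4, per the deposited file descriptions. An aligner and a counting program were used by the authors, their names and strand setting not given in the sources used here.

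Symbols and positions were taken from GENCODE M21 (same build) by unversioned identifier. All 123 listed symbols matched. The members and lists were chosen with earlier results of these data known. Transcripts were grouped into classes after their shares had been seen. Named were all 10 members, genes of these lists and transcripts of at least 10% of a gene, plus Bcl11a-203, chosen after its values were seen. Outside the lists, Mrps25 was named for its overlap with Nr2c2 and Gm2467 for its place between Myb and Hbs1l. Ratios used a pseudocount of 1, and all genes were those with a mean of at least 10 TPM. No test was possible, so differences are descriptive. CPM was computed from expected counts, with TMM factors from edgeR 4.0.16 (R 4.3.3) on rounded counts. The ratio step was run on libraries simulated with counting error only, with ratios centred on their median. The reported calls past 1.2-fold are not centred and hold spread between livers, so that run does not test them. Alternatives were pseudocounts of 0.1 and 5, FPKM, posterior means, CPM, TPM without globin genes, other filters and each library alone. Tables were joined with pandas 2.3.3 and numpy 2.4.6, intervals came from scipy 1.17.1 and plots from matplotlib 3.10.9, under Python 3.11.15. Reads are not independent molecules after amplification, so intervals cover counting error only. The labels give both livers 1 donor identifier, so their spread may be partly technical. The values of many listed genes are left out of the text.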

Additional observations from a re-analysis of the deposited data

How the results depend on the processing

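The number of members past 1.2-fold between the livers, 4 of 10 by TPM with a pseudocount of 1, was 2 with a pseudocount of 5, with FPKM and with CPM and TMM factors, where 7.17%, 8.25% and 6.13% of all genes lay past it. It was 4 with a pseudocount of 0.1 or posterior mean TPM and 3 without globin genes. Of all genes, 13.7%, 11.4% and 9.65% lay past it in these settings, in that order. The members' median log2 ratio of 0.19 was 0.14 with FPKM and 0.11 with CPM and TMM factors. The share of all genes past 1.2-fold, 12.2%, was 20.7% with a mean of at least 1 TPM and 8.43% with no filter. The 7 members that led their paralogs in both livers by TPM also led by estimated reads. FPKM and each library alone could not remove a lead. Within a library FPKM keeps the order of TPM, and a lead already had to hold in each library. The same transcript led in both livers for 8 genes by TPM and for 9 by reads (not Chd4) or by posterior mean TPM (not Zbtb7a). With posterior mean TPM, the levels of all 10 members lay within 1 SD of those reported. Without globin genes all 10 levels were higher, by 1.56-fold in replicate 1 and 1.52-fold in replicate 2. That rise is fixed by the rescaling, which multiplies every other gene of a library by the same factor. Depth limits Nr2c1 most, with 193 reads in replicate 2. No paired analysis was possible because there is 1 group, so no groups share replicate numbers.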
